A study of Macaca mulatta with 16 samples.

Results

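Retinoic acid is made from vitamin A inside the cells that use it. Retinol travels in blood bound to a carrier protein, is oxidised to retinaldehyde in tissue, and is oxidised again to retinoic acid by retinaldehyde dehydrogenases. Cellular binding proteins carry retinoic acid to the nucleus, where heterodimers of a retinoic acid receptor and a retinoid X receptor switch target genes. The pathway is best known from embryonic patterning, and retinoic acid from the eye and its surroundings takes part in building the muscles around the eye.

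The 9 genes described here are ALDH1A1, ALDH1A2 and ALDH1A3, which encode the retinaldehyde dehydrogenases, RBP4 (the blood carrier of retinol), CRABP2 (a cellular retinoic acid binding protein), the receptor genes RARA, RARB and RARG, and RXRA, the gene of a retinoid X receptor. Every probe set whose platform annotation lists one of these symbols was taken, which gave 21 of 22215 probe sets on the human array type U133A and 0 of 22577 on U133B. RARB had 5 probe sets, RARA 4, RARG 3, ALDH1A2, RBP4 and RXRA 2 each, and ALDH1A1, ALDH1A3 and CRABP2 1 each. The genes were chosen by name, but with results of these arrays already known. Among those was the difference of ALDH1A1 between the muscle layers, so the contrast of the layers is described below without a test.

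The samples were extraocular muscles of adult rhesus macaques, which turn the eye and have an outer orbital and an inner global layer. Per the labels, both layers were microdissected (a laser is named for 1 sample) and their RNA was amplified with T7 polymerase, whereas whole lateral rectus and whole medial rectus followed the standard array protocol. Each of these 4 groups has 2 arrays on U133A and 2 on U133B, a number that limits the precision of every value. The title of orbital layer replicate 1 on U133A names the orbital layer and its source name the global layer; it was grouped by its title. The source name of global layer replicate 1 on U133B does not say which layer, and that array was also grouped by its title. Some titles of rectus arrays hold no replicate number, and the numbers used for these arrays were assigned here. No genotype, treatment, exact age or animal is labelled, so which arrays share an animal is unknown and each p-value reflects the scatter of the arrays alone, part of which may be technical. Tissue and protocol cannot be told apart when layers are set against whole muscle.

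Values are intensities in the authors' scaled units. Levels of different probe sets were not compared, since human probes bind each macaque transcript with their own strength. Intensities at or below 146.487 units, the lowest 20% of all U133A values, were treated as equal (the floor) before log2 was taken, and a probe set was tested only if its mean log2 value over the arrays compared reached that of the table's median, 653.942 units. That mean ran over both groups, so a probe set could be tested although the mean of a group lay under this level. Of the 21 probe sets, 12 lay above the floor on every array and 11 reached the test in no comparison. Muscle markers were present on every U133A array, with CKM, the muscle creatine kinase gene, at 76118 to 150823 units. For ACTB, the signal of the 3' probe set over that of the 5' one, a measure of RNA integrity and labelling, was 5.30 and 5.87 for the orbital layer, 2.84 and 2.88 for the global layer and 0.716 to 1.04 on the rectus arrays. These ACTB values are from U133A. On U133A the same ratio of GAPDH overlapped between the groups, at 1.73 and 2.00 for the orbital layer, 2.92 and 1.5 for the global layer and 0.947 to 1.66 in whole muscle. On U133B both ratios were higher on all layer arrays than on all rectus arrays. There GAPDH was at 2.04 to 4.33 in the layers against 1.18 to 1.74 in whole muscle, and ACTB at 3.54 to 5.29 against 0.512 to 0.933.

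ALDH1A1, the dehydrogenase gene known for expression in adult eye and many other tissues, stood out in the orbital layer. Its probe set 212224_at gave 27716 and 28091 units for the orbital layer, 2653 and 5821 for the global layer, 5000 and 9960 on the lateral rectus arrays and 5413 and 9332 on the medial rectus arrays. Both orbital arrays lay above the other 6. The lower orbital array was 4.76 times the higher global array and 2.78 times the highest rectus array. The groups' order was orbital layer (27904 ± 265, SD, n = 2), lateral rectus (7480 ± 3507), medial rectus (7372 ± 2772) and global layer (4237 ± 2240). The last 3 overlapped, and no neighbouring pair among them parted beyond its spread.

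**Figure D1:**
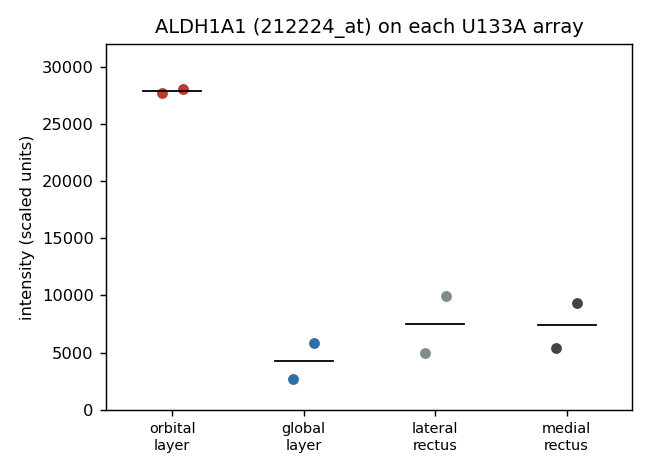
Intensity of ALDH1A1 (probe set 212224_at, scaled units, linear axis) on each U133A array of the 4 groups; points are arrays and lines are means of 2 arrays. The orbital arrays sit at 27716 and 28091 units, and the other 6 between 2653 and 9960.

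Orbital minus global layer, ALDH1A1 differed by 2.83 ± 0.36 on the log2 scale (SE of the limma fit), or 7.10-fold. The difference was 2.84 without the orbital array whose labels conflict, which read within 1.01 times of its partner. It was 2.26 without global layer replicate 1 and 3.39 without replicate 2, since those arrays were 2.19 times apart. Against the 4 rectus arrays, the orbital layer was higher by 1.98 and the global layer lower, at −0.85. Taken as 1 group the layers differed from whole muscle by 0.56 ± 0.64, which did not pass (limma adjusted p = 0.487). That value was 0.10 and 0.09 without orbital layer replicate 1 or 2, 1.22 without global layer replicate 1 and 0.85 without replicate 2, and 0.22 with quantile normalization. In bulk samples, fewer cells of a type and less RNA per cell cannot be told apart.

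Several marker lists also differed between the layers on U133A. The summed level of the 12 of 12 fibroblast and connective tissue markers on the array was 326038 to 361516 units on the orbital and 265911 to 277894 on the global arrays, and that of the 9 of 9 pericyte and smooth muscle markers was 50894 to 52261 against 40564 to 42062. The pericyte list includes DES, which is also on the skeletal muscle list, so its sum is not of pericytes and smooth muscle alone. RGS5 was its highest gene. For 12 of 13 markers of retina and pigment epithelium the summed level was 6659 to 7905 against 3429 to 4756, with PDC (phosducin) as the list's highest gene. RPE65, the defining gene of the pigment epithelium, averaged below the floor. The 11 of 11 endothelial markers summed to 20798 to 22680 on the orbital and 29698 to 35872 on the global arrays. The 8 of 10 lacrimal gland and surface markers summed to 1266 to 1466 against 1972 to 2660. The 8 of 9 adipocyte markers overlapped on U133A, with 11333 to 24723 against 21257 to 22665. The sum of the 3 on U133B was lower in the orbital layer, with 17930 to 18570 against 41408 to 49733, and CD36 was the highest of these 3. On U133B the fibroblast (14343 to 21871 against 16804 to 18174), endothelial (11760 to 14582 against 13930 to 13955), pericyte and lacrimal lists overlapped between the layers. The part of these cells, and of the ACTB ratio above, in the ALDH1A1 difference was not tested.

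Over the 8 arrays, the probe sets whose log2 values followed ALDH1A1 most closely, by Pearson correlation among 10158 probe sets of 1 gene each, belonged to HNRNPH3 (an RNA-binding protein; 0.975), SLN (sarcolipin, which inhibits the calcium pump of muscle; 0.972), MYH3 (the embryonic myosin heavy chain; 0.965), SLC30A1 (a zinc exporter; 0.960) and TPPP3 (a tubulin-binding protein; 0.955). These values are descriptions over arrays that fall into separate groups. SLN read 39461 and 32232 units on the orbital arrays and 9126 to 20594 on the other 6. TPPP3 read 8603 and 9032 on the orbital arrays and 1624 to 3672 elsewhere. HNRNPH3 had the highest correlation but a narrow range, from 4652 to 7782 units.

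**Figure D2:**
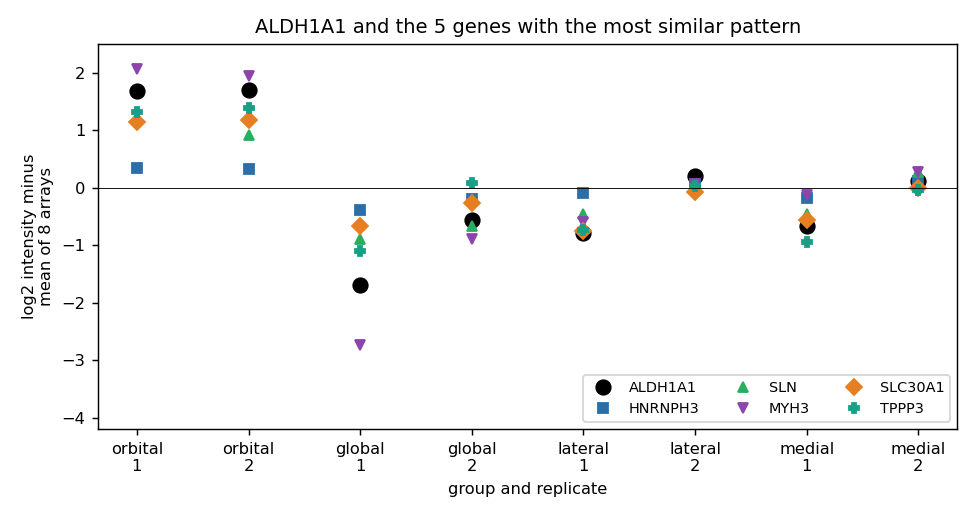
Log2 intensity of ALDH1A1 and of the 5 genes most like it, each minus its own mean over the 8 U133A arrays (vertical axis), by group and replicate (horizontal axis). All 6 genes have their highest points on the orbital arrays; those of MYH3 spread most and those of HNRNPH3 least.

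The other 2 dehydrogenase genes did not share this pattern. ALDH1A2, known as the main retinoic acid source of the early embryo, with 207016_s_at gave 993 and 640 units for the orbital layer against 1521 and 1240 for the global layer. In whole muscle it ranged from 303 to 1372, so the rectus arrays enclosed all but 1 of the layer values. Orbital minus global, it differed by −0.79 ± 0.33 on the log2 scale. Its other probe set, 207015_s_at, was at the floor on 4 of 8 arrays.

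ALDH1A3, known from retina and from the face and eye of the embryo, read 561 and 314 units on the orbital and 1200 and 459 on the global arrays. On the rectus arrays it read 201 and 176 (lateral) and 201 and 175 (medial). All 4 layer arrays were above all 4 rectus arrays, the lowest by 1.56 times, and the layer arrays themselves were up to 3.82 times apart. The probe set was too dim for the main test. Without the filter, the difference of layers minus whole muscle was 1.57 with limma adjusted p = 0.0232.

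CRABP2 went the other way between layers and whole muscle. Its probe set 202575_at read 143 and 384 units on the orbital, 410 and 250 on the global, 880 and 962 on the lateral rectus and 1218 and 853 on the medial rectus arrays. The lowest rectus array was 2.08 times the highest layer array, and the orbital and global arrays overlapped. Its mean over the 8 arrays lay under the filter. Without the filter, layers minus whole muscle gave −1.81 with limma adjusted p = 0.0109.

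Both probe sets of RBP4, a gene expressed mainly by liver and fat, were dim. Its probe set 219140_s_at was at the floor on 7 of 8 arrays. The other, 222049_s_at, ranged from 84.4 to 480 units with overlapping groups. A level this low gives no order of the groups.

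**Figure D3:**
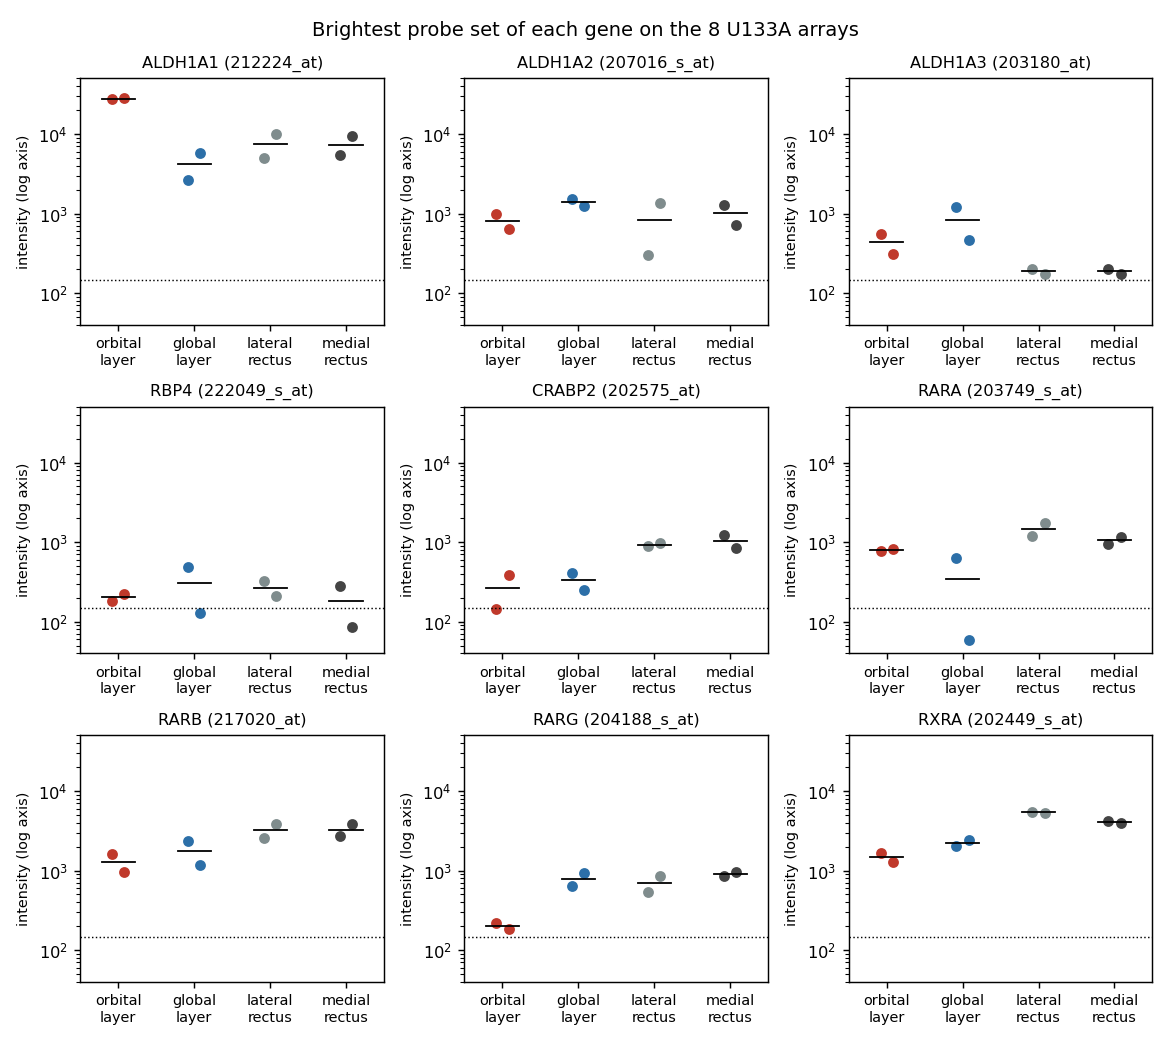
Intensity on a log axis of the brightest probe set of each of the 9 genes on the 8 U133A arrays; points are arrays, short lines are means of 2 arrays, and the dotted line is the floor of 146.487 units. ALDH1A1 is highest in the orbital layer, RARG (204188_s_at) lowest there, and CRABP2 and RXRA (202449_s_at) are lower on all layer arrays than on all rectus arrays.

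Among the receptors, RARG had the widest contrast of the layers after ALDH1A1. Its probe set 204188_s_at read 217 and 186 units on the orbital, 633 and 921 on the global, 530 and 861 on the lateral rectus and 863 and 949 on the medial rectus arrays. Both orbital arrays were below the other 6, the nearest of which was 2.44 times the higher orbital array. With the floor applied, orbital minus global was −1.93. The other probe sets of the gene did not show it to this extent. On 204189_at the orbital arrays (267 and 225) overlapped the global arrays (322 and 256). Probe set 217178_at was at the floor on 4 of 8 arrays, both orbital ones included. Between layers and whole muscle, 204189_at was lower on all layer arrays (225 to 322 units) than on all rectus arrays (400 to 573). It was too dim for the main test. Without the filter, layers minus whole muscle gave −0.92 for 204189_at, with limma adjusted p = 0.0141. On 204188_s_at and 217178_at the layer and rectus arrays overlapped.

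RXRA, the shared partner of many nuclear receptors, was lower in the layers than in whole muscle. With 202449_s_at it read 1638 and 1285 units on the orbital, 2011 and 2416 on the global, 5368 and 5359 on the lateral rectus and 4139 and 3937 on the medial rectus arrays. All 4 layer arrays were below all 4 rectus arrays, and both orbital arrays below both global ones. Layers minus whole muscle, it fell by 1.38 ± 0.22 on the log2 scale, or 2.60-fold (limma adjusted p = 5.18e-04). It passed in all 16 alternatives tried, with differences from −1.52 to −1.22. The second probe set, 202426_s_at, showed no such difference, at 545 ± 31.1 units in the layers and 612 ± 352 in whole muscle (SD, n = 4 each).

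RARB, whose own transcription retinoic acid is known to raise, had 3 tested probe sets, all lower in the layers. On 217020_at the orbital arrays read 1590 and 948 units, the global arrays 2349 and 1158, the lateral rectus 2581 and 3831 and the medial rectus 2715 and 3791. The layer and rectus arrays were apart, but by only 1.10 times at their nearest. This probe set fell by 1.16 ± 0.28 (adjusted p = 0.00509 in limma) and passed in all 16 alternatives. Its probe set 205080_at fell by 0.62 ± 0.24, from 2411 ± 314 to 1623 ± 501 units (adjusted p = 0.0483), and passed in 4 of 16 alternatives. Without the filter its adjusted p in limma was 0.0888. Without global layer replicate 1 its difference was −0.43. The third, 208530_s_at, had 630 ± 212 against 1348 ± 665 units (−1.0 ± 0.43, adjusted p = 0.0730 in limma, and 0.164 without the filter). Its mean in the layers lay under the level for testing, which it reached through whole muscle. The remaining 2 were at the floor on 5 and 6 of 8 arrays.

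RARA, the receptor with the broadest known expression, had 2 tested probe sets. On 203749_s_at it read 763 and 813 units on the orbital, 637 and 59.2 on the global, 1192 and 1736 on the lateral rectus and 953 and 1148 on the medial rectus arrays. The layer arrays lay below the rectus arrays, and 1 global array lay far below the rest. Its mean in the layers, 568 ± 347 units, lay under the level for testing, which it reached through whole muscle (1257 ± 336). The probe set fell by 1.32 ± 0.50 (limma adjusted p = 0.0449) and passed in 6 of 15 alternatives. Without global layer replicate 2 the difference was −0.74 with limma adjusted p = 0.0589, and without the filter the adjusted p was 0.127. The other tested probe set, 216300_x_at, differed by −0.75 ± 0.45 (adjusted p = 0.185 in limma). Among the untested ones, 203750_s_at averaged 369 ± 158 units in the layers and 360 ± 225 in whole muscle, and 211605_s_at was at the floor on 6 of 8 arrays.

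**Figure D4:**
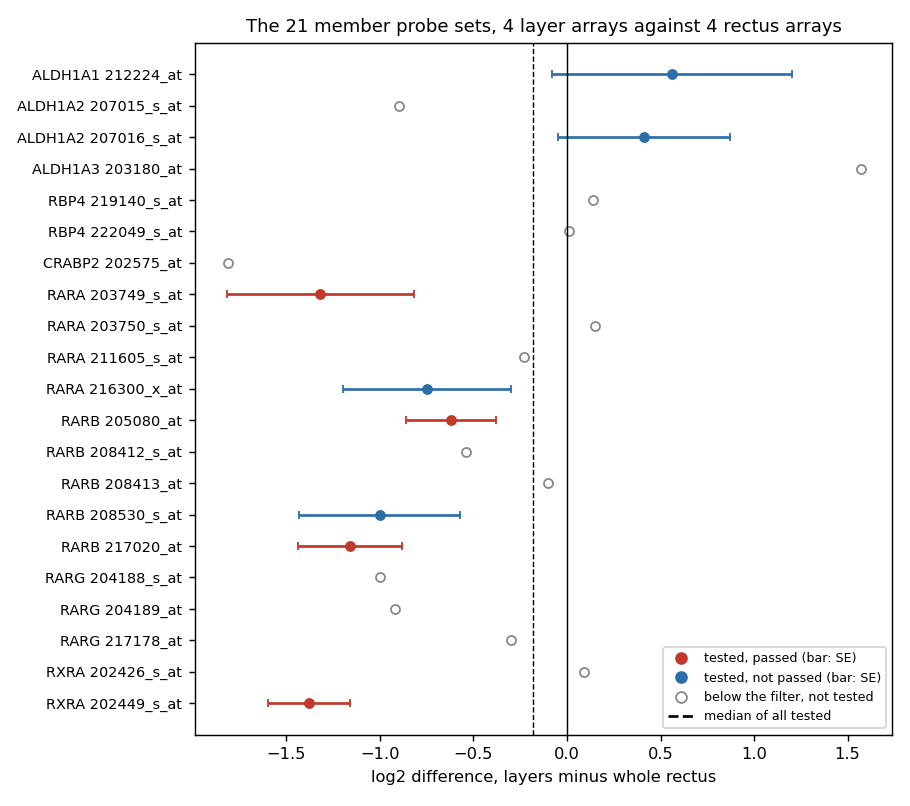
Log2 difference of layers minus whole rectus (horizontal axis) for the 21 probe sets of the 9 genes on U133A; filled points were tested and carry the SE as bars, open points were below the filter. Of the 8 tested, 4 passed (RARA 203749_s_at, RARB 205080_at and 217020_at, RXRA 202449_s_at), all below 0; the dashed line is the median of all tested probe sets, −0.18.

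Counted together, 4 of 8 tested probe sets passed between layers and whole muscle, all lower, where 48.7% of the 10533 probe sets tested on U133A passed in either direction, 18.6% higher and 30.1% lower. The 8 had a median log2 difference of −0.87, against −0.18 over all tested. RARA 203749_s_at, which passed, and RARB 208530_s_at, which did not, averaged under the level for testing in the layers. Both were tested through their level in whole muscle. The count of passing probe sets was 2 without global layer replicate 1, lateral rectus replicate 1, lateral rectus replicate 2 or medial rectus replicate 2. Of all 21 probe sets, 5 were lower and 1 higher on every layer array than on every rectus array, and over all U133A probe sets a share of 31.4% was apart in this way, 22.2% lower and 9.23% higher. The share of members past the threshold in either direction is near that of all probe sets, so their number is no result about these genes. Beside these differences, marker lists of other cells also parted the layer arrays from the rectus arrays, in both directions. On U133A the summed level of 10 of 11 immune markers was 7926 to 11152 units in the layers and 14860 to 21345 in whole muscle, and that of 7 of 11 Schwann cell and nerve markers 9666 to 10981 against 12072 to 16367. The 9 pericyte and smooth muscle markers, DES included, were higher in the layers, at 40564 to 52261 against 25956 to 38581. The other U133A lists overlapped, the lacrimal one (1266 to 2660 against 2488 to 3751) with SCGB2A1 and KRT19 at the floor on all 8 arrays. On U133B, fibroblast (5 of 12 markers, 14343 to 21871 against 6995 to 9025), endothelial (3 of 11, 11760 to 14582 against 5218 to 7884) and adipocyte markers (3 of 9, CD36 highest, 17930 to 49733 against 8699 to 14102) were higher in the layers. On U133A the 12 fibroblast markers overlapped, at 265911 to 361516 against 250498 to 311859. Among them COL1A1 went the other way, at 6639 to 22195 in the layers against 31413 to 55646 in whole muscle. Schwann cell and nerve markers on U133B were lower in the layers (3 of 11, 4418 to 6075 against 6628 to 12971). So were the lacrimal markers (2 of 10, 217 to 699 against 1046 to 2219) and the 1 retinal marker (71.5 to 164 against 240 to 319) of U133B. The part of these cells, and of the ACTB and GAPDH ratios, in the differences was not tested. The scale of this comparison is not fixed: with quantile normalization the median over all probe sets on U133A was 0.00 instead of −0.18. The calls then split into 2073 higher and 2043 lower instead of 1964 and 3168, and 2 of the 8 passed, 217020_at of RARB and 202449_s_at of RXRA.

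Between the layers, 2 of the 21 probe sets were higher and 5 lower on both orbital arrays than on both global arrays, and 30.7% of all probe sets on U133A were apart in this way (12.1% higher, 18.6% lower). The higher ones were ALDH1A1 and RARA 203749_s_at. The lower ones were 207016_s_at of ALDH1A2, 203750_s_at of RARA, 204188_s_at and 217178_at of RARG, and 202449_s_at of RXRA. For RARA the 2 probe sets disagreed in direction: 203750_s_at read 205 and 262 units on the orbital and 492 and 517 on the global arrays. Nothing is read from these counts, since the layer contrast was known when the genes were chosen.

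Medial and lateral rectus, which turn the eye inward and outward, gave no member past the threshold. None of 10 tested probe sets passed in limma, and 1 had an unadjusted p under 0.05. Over the table, 0% of 11907 probe sets passed, and 333 had an unadjusted p under 0.05. The difference with the smallest p was that of RARB 208530_s_at, with 525 and 1151 units on the medial arrays against 1639 and 2075 on the lateral ones (−1.25 ± 0.47, adjusted p = 0.999 in limma). It was −0.68 without medial rectus replicate 1 and −1.81 without medial rectus replicate 2. Its other tested probe sets differed by −0.06 and 0.03, so that the gene as a whole had no common direction. ALDH1A1 differed by 0.01 ± 0.37, less than the gap between the 2 arrays of either muscle, which were 1.99 times (lateral) and 1.72 times (medial) apart. RXRA 202449_s_at was lower on both medial arrays (−0.41 ± 0.22). In all, 2 of the 21 probe sets were higher and 4 lower on both medial arrays, and 26.5% of all probe sets were apart in this way (14.7% higher, 11.9% lower). With 2 arrays a side, missing the threshold is no evidence of equal levels.

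The rest of the pathway was read from 5 lists of 89 genes in all, of which 62 had a probe set of 1 symbol on U133A and 26 on U133B; each gene was represented by its brightest probe set. Between layers and whole muscle, 33 genes were tested on U133A, of which 7 rose, 8 fell and 18 did not pass, with a median of −0.21 against −0.18 over the table, where 48.7% of probe sets passed (18.6% higher, 30.1% lower). On U133B, 14 were tested, of which 4 rose, 4 fell and 6 did not pass, with a median of 0.27 against −0.21, where 42.8% of the 10547 probe sets of the table passed, 20.5% higher and 22.3% lower. The U133B count of 8 was 5 without global layer replicate 1, lateral rectus replicate 1 or medial rectus replicate 1, and 4 without global layer replicate 2 or medial rectus replicate 2. Of the 23 calls, 10 held in every alternative tried.

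Of 12 retinoid transport genes 3 were tested on U133A, and 3 fell, where 30.1% of all probe sets did; nothing is read about the list from so few. STRA6, the membrane receptor that takes up retinol from its carrier, had 620 ± 272 units in the layers and 1385 ± 341 in whole muscle (SD, n = 4 each; −1.22 ± 0.33, limma adjusted p = 0.0103), and its call ended under quantile normalization (−0.65). RLBP1, a retinaldehyde binding protein of the visual cycle, fell by 1.30 ± 0.25 (limma adjusted p = 0.00137), with 558 to 775 units in the layers and 1169 to 2112 in whole muscle. FABP5, a fatty acid binding protein that also carries retinoic acid, fell by 1.01 ± 0.38 (adjusted p = 0.0451 in limma) and passed in 7 of 16 alternatives. On U133B, RBP7, a cellular retinol binding protein gene, differed by −0.17 ± 0.29 without passing.

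Enzymes that convert retinol and retinaldehyde differed in both directions. On U133A 1 of 7 tested genes rose, 3 fell and 3 did not pass; on U133B 2 of 4 fell. These counts stand beside 48.7% and 42.8% of all probe sets that passed on the respective array types. RETSAT, which saturates retinol, rose by 2.12 ± 0.50 (2147 ± 278 units in the layers, 603 ± 413 in whole muscle, adjusted p = 0.00447 in limma). DHRS9, a retinol dehydrogenase of the short-chain family, fell by 1.93 ± 0.31 on U133A (723 ± 357 against 2515 ± 233 units, limma adjusted p = 5.91e-04) and by 0.75 ± 0.27 on U133B (adjusted p = 0.0364). ADH5, an alcohol dehydrogenase best known for clearing formaldehyde, fell by 1.21 ± 0.23 (adjusted p = 0.00142 in limma). RDH10, which makes retinaldehyde in the embryo, fell by 0.65 ± 0.21 on U133B (limma adjusted p = 0.0279; 10 of 16 alternatives), and RDH11 by 0.83 ± 0.31 on U133A (adjusted p = 0.0421; 6 of 15). For breakdown, 1 of 5 genes was tested: CYP26B1, a retinoic acid hydroxylase, differed by 0.82 ± 0.61 without passing.

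Receptor partners and cofactors differed in both directions. On U133A 4 of 13 tested genes rose, 2 fell and 7 did not pass; on U133B 3 of 5 rose, 1 fell and 1 did not pass. Over all probe sets, 48.7% passed on U133A and 42.8% on U133B. The coactivator genes NCOA1 and NCOA2 rose by 0.95 ± 0.18 and 1.01 ± 0.17 (adjusted p = 0.00129 and 6.54e-04 in limma), and ZNF423, a zinc finger cofactor of RAR and RXR, by 1.05 ± 0.17 (adjusted p = 6.04e-04). NRIP1, a corepressor that retinoic acid induces, rose by 1.02 ± 0.37 on U133A (limma adjusted p = 0.0384; 9 of 16 alternatives). RXRG, the retinoid X receptor known from skeletal muscle, fell by 0.67 ± 0.22, from 1449 ± 22.9 to 925 ± 178 units (adjusted p = 0.0227 in limma), and its call ended under quantile normalization (−0.18) and without orbital layer replicate 2. On U133B the acetyltransferase gene CREBBP rose by 1.83 ± 0.45 (adjusted p = 0.00687 in limma) and PPARA, a nuclear receptor partner of RXR, by 1.97 ± 0.62 (adjusted p = 0.0225; 10 of 15 alternatives). PPARD, another such partner, fell by 1.74 ± 0.57 on U133B (limma adjusted p = 0.0273; 8 of 15) and differed by 0.03 ± 0.19 on U133A.

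Known targets of retinoic acid had no common direction. On U133A 3 of 13 tested genes rose and 1 fell, and on U133B 1 of 4 rose and 1 fell, beside 48.7% and 42.8% of all probe sets that passed; STRA6 and NRIP1, given above, belong to this list as well. DUSP6, a phosphatase that limits ERK signalling, rose by 2.13 ± 0.21, from 2108 ± 326 to 9388 ± 2394 units (adjusted p = 3.48e-05 in limma). RAI1, named for its induction by retinoic acid, rose by 1.39 ± 0.26 on U133B (15111 ± 4171 against 5749 ± 1588 units, limma adjusted p = 0.00127). TGM2, a transglutaminase that retinoic acid raises in many cells, differed by −0.65 ± 0.28 and did not pass (adjusted p = 0.0704 in limma). It was named outside the rule given below. MEIS1 (−0.75 ± 0.31) and BHLHE40 (−0.64 ± 0.26) of the same list had smaller p and did not pass either. Array types disagreed for 2 genes that passed on both. BHLHE41, a circadian repressor, rose by 0.58 ± 0.22 on U133A and fell by 1.08 ± 0.39 on U133B (adjusted p = 0.0476 and 0.0405 in limma). TBL1XR1, a subunit of corepressor complexes, fell by 0.83 ± 0.26 on U133A and rose by 1.08 ± 0.20 on U133B (adjusted p = 0.0193 and 0.00148), where quantile normalization turned it to −0.18. Of 7 genes tested on both array types, 3 had the same sign and 4 opposite signs.

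**Figure D5:**
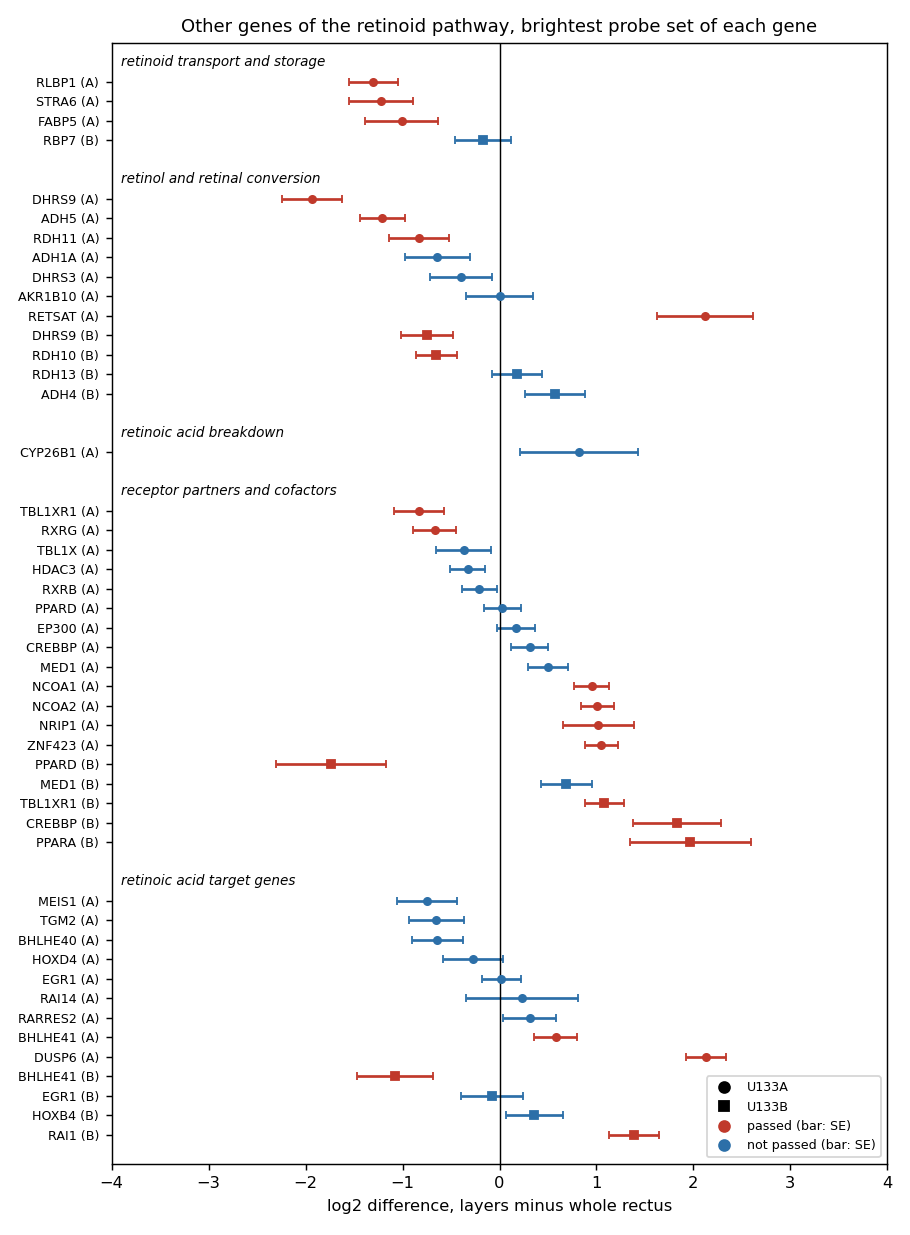
Log2 difference of layers minus whole rectus (horizontal axis, bars are SE) for other genes of the retinoid pathway, by list, with 1 probe set per gene and array type (A or B). Points coloured as passed had limma adjusted p under 0.05; RETSAT and DUSP6 rise most on U133A and DHRS9 falls most.

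Between the orbital and global layers, none of these pathway genes passed in limma: 0 of 29 on U133A, with 5 at an unadjusted p under 0.05, and 0 of 13 on U133B, with 1. Over all tested probe sets 0.409% passed on U133A and 0.0210% on U133B. FABP5 was higher in the orbital layer by 1.47 ± 0.38 (adjusted p = 0.276 in limma), with 3640 and 8125 units against 1854 and 2076. Without orbital layer replicate 1, the array with conflicting labels, the difference was 2.05. That setting leaves 1 orbital array, the one at 8125 units. FABP5 passed in no setting that kept all arrays. AKR1B10, an aldo-keto reductase that reduces retinaldehyde, was named after its values were seen. It was lower by 1.54 ± 0.26 in the orbital layer (limma adjusted p = 0.0695). The difference was −1.71 without global layer replicate 2, which leaves 1 global array. AKR1B10 passed with the replicate number as a block (limma adjusted p = 0.0230) and with all 4 groups in 1 fit (limma adjusted p = 0.0272). It did not pass in the other settings that kept all arrays. Between medial and lateral rectus, 0 of 37 passed on U133A and 0 of 16 on U133B in limma, with 1 each at an unadjusted p under 0.05.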

How the data were processed

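The data deposited are linear intensities, 1 for each probe set of each array, from rhesus RNA on human U133A (22283 probe sets) and U133B (22645) arrays. Per the labels, layer RNA was T7-amplified. The authors scaled each array: the mean after trimming 2% at either end was 1500.2 to 1500.7 everywhere. Summary software and detection calls are not given in the sources used here. Arrays were scaled to a common trimmed mean, floored at the table's 20th percentile (146.487 and 218.465) and put on a log2 scale. A probe set was tested where its mean log2 value over the arrays compared reached that of the table's median (653.942 and 802.702). The 68 control probe sets per table were left out. Tests used limma 3.58.1 in R 4.3.3 (2 groups, intensity trend, two-sided), adjusted by Benjamini-Hochberg over each table, with a threshold of 0.05. The fits were tested on simulated data. Python 3.11.15 and matplotlib 3.10.9 drew the figures.

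Symbols came from the platform annotation; genes of the lists without a probe set of 1 symbol were not analysed here. Members and lists were chosen with earlier results of these data known. All member probe sets were named. From each pathway list, the genes that passed, and up to 4 with the smallest p between layers and whole muscle, were eligible. TGM2 and AKR1B10 were named outside this rule. The alternatives were quantile normalization, 2 other floors, no filter, a stricter filter, no trend, array weights, 4 groups in 1 fit, replicate numbers as a term, and each array left out.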

Additional observations from a re-analysis of the deposited data

Results flagged for a closer look

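In 3 of 42 sets of 4 arrays (the layer or the rectus arrays of a member probe set), 1 array lay far from the other 3 by Dixon's criterion, which chance meets in about 1 of 20 sets. RARA 203749_s_at read 59.2 units on global layer replicate 2 and 637 to 813 on the other layer arrays. RARB 208412_s_at read 232 units on the same array and 60.2 to 65.9, below the floor, on the others. RARG 204188_s_at read 530 units on lateral rectus replicate 1 and 861 to 949 on the other rectus arrays.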

How the results depend on the processing

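Of 674 differences of members and pathway genes recomputed under an alternative, 563 kept their direction and their side of the threshold, or, for the layers, moved by less than 1 SD. ALDH1A1 between the layers ranged from 2.26 to 3.39 with single arrays left out. The number of member probe sets past the threshold between layers and whole muscle was 2 with quantile normalization and 2 to 3 with single arrays left out, against 4. Pathway genes past it were 9 on U133A with a filter at the 75th percentile, where fewer were tested, and 11 to 15 with arrays left out, against 15. On U133B they were 5 with quantile normalization and 4 to 7 with arrays left out, against 8. Between the layers, 1 pathway gene, AKR1B10, passed on U133A with all 4 groups in one fit, and the same 1 with replicate numbers as a block. In the other settings that kept all arrays 0 passed. Leaving out an array leaves 1 array in a layer, so passing genes are not counted there. The same-numbered layer arrays deviated together with a correlation of 0.26 on U133A and 0.13 on U133B, and no label says what the numbers share. With the replicate block, 92 probe sets passed on U133A and 26 on U133B, against 39 and 2; ALDH1A1 stayed at 2.83.

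Signs changed for 1 difference that had passed, TBL1XR1 on U133B (−0.18 with quantile normalization), and otherwise for differences that had not. Medial minus lateral rectus, with single arrays left out, ALDH1A1 ranged from −0.49 to 0.51 (−0.49 without lateral rectus replicate 1, −0.38 without medial rectus replicate 2) and RARB 217020_at from −0.26 to 0.31 (−0.26 and −0.21 in the same settings). ALDH1A2 207016_s_at ranged from −0.51 to 1.67, and from −0.05 to 0.67 in layers minus whole muscle, both lowest without lateral rectus replicate 1. CRABP2 ranged from −0.11 (without medial rectus replicate 1) to 0.40. RARB 205080_at ranged from −0.24 to 0.12, with 0.07 without medial rectus replicate 1 and 0.12 without lateral rectus replicate 2. Signs also changed orbital minus global layer. There RARB 205080_at, at 0.06, was −0.47 without global layer replicate 1 and −0.14 without orbital layer replicate 2. RARB 217020_at, at −0.43, was 0.08 without global layer replicate 1. With quantile normalization RBP7 turned to 0.22 in layers minus whole muscle. The cause was not tested. With 2 arrays a group, dim probe sets allow no order of groups.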

Other observations

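RARA 203749_s_at had the widest range of group means after ALDH1A1, 2.24 on the log2 scale. That place rests on global layer replicate 2: without it the range was 1.18, below those of the other 8 genes in the same setting (1.24 to 3.39). The probe sets most like it over the 8 U133A arrays were those of ZNF324B (Pearson correlation 0.967), XBP1 (0.964), MARCKSL1 (0.959), SLC2A1 (0.939) and ARHGEF1 (0.937), as a description of arrays in separate groups. XBP1, a transcription factor of the unfolded protein response, read 442 units on global layer replicate 2, 956 to 1369 on the other layer arrays and 1623 to 2319 on the rectus arrays. SLC2A1, a glucose transporter, read 4091 on that array and 6513 to 8830 on the other layer arrays.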
